A study of Homo sapiens with 6 samples.

Results

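AP-1 and the early growth response factors are transcription factors, many of which cells switch on within minutes of a stimulus, before any new protein is needed. They were described here through 10 genes, the AP-1 subunits FOS, FOSB, FOSL2, JUN, JUNB, JUND and ATF3 and the immediate early factors EGR1, IER2 and SRF. The genes were taken by symbol from the authors' deposited table, and 9 of the 10 were matched among its 13885 genes. FOSB (7185 bases long, chromosome 19 from 45467995 to 45475179 on the plus strand) was not matched and is not analysed here. RNA was measured by poly(A)-selected RNA-seq in BE(2)-C cells, a human neuroblastoma line with amplified MYCN that becomes more neuron-like in retinoic acid. The 3 siScram samples carried a scrambled siRNA and the 3 siPcif1 samples an siRNA against PCIF1, for 24 h each. All 6 samples have the genotype label WT, come from 1 cell line and were afterwards kept for 4 days in 10 µM all-trans retinoic acid (ATRA), with new medium every 24 h. PCIF1 is the enzyme that methylates a first transcribed adenosine beside the mRNA cap, making m6Am. Cells without ATRA or without siRNA are not analysed here, so effects that retinoic acid or transfection had in both groups do not show.

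AP-1 is a dimer of basic leucine zipper (bZIP) proteins. FOS proteins need a JUN partner, JUN proteins can also pair with each other, and ATF3 pairs with JUN proteins and others. The dimers bind TGACTCA, the TRE, or the cyclic AMP response element TGACGTCA, the CRE. SRF sits on CArG boxes beside ELK factors or MRTF coactivators, and through them growth factor signals and actin dynamics reach FOS, EGR1 and IER2. The RNAs of most of these genes are unstable, many of them through AU-rich elements in the 3′ UTR. In neurons AP-1 and EGR factors are known for following activity, and ATF3 and JUN for the response to axon injury and stress.

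The promoters show which of these binding words stand at the members' start sites. RefSeq promoters on GRCh38.p14, 250 bases before to 50 after a start site, were matched for 10 of 10 members in 12 windows. The 6 windows printed hold a full AP-1, CRE or CArG word, in capitals, and are 5′ to 3′ on the gene's own strand. The words searched on both strands were TGACGTCA (CRE), its half-site TGACG, which lies within the CRE and is not in capitals, TGACTCA (TRE), TGACATCA (the TRE variant of the JUN promoter), the CArG box, GCGTGGGCG (the EGR site) and TGATGNAAT (the ATF4-C/EBP element). ATF3 is the distal start site at chr1:212565157-212565456 on the plus strand, FOSL2 is chr2:28392608-28392907 (plus) and JUN is chr1:58783998-58784297 (minus). JUND is chr19:18281573-18281872 (minus), EGR1 is chr5:138465229-138465528 (plus) and SRF is chr6:43171019-43171318 (plus).
ATF3: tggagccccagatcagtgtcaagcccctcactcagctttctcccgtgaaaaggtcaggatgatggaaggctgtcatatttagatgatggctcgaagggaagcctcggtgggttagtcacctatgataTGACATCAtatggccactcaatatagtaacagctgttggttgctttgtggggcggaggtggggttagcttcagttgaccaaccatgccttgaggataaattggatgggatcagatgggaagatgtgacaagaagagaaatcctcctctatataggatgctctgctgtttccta
FOSL2: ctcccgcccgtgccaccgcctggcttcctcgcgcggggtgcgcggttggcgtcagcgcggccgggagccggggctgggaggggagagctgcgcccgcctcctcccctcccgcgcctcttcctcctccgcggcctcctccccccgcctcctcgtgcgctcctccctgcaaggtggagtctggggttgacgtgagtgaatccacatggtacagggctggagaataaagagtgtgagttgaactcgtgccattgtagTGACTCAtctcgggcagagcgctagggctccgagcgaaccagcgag
JUN: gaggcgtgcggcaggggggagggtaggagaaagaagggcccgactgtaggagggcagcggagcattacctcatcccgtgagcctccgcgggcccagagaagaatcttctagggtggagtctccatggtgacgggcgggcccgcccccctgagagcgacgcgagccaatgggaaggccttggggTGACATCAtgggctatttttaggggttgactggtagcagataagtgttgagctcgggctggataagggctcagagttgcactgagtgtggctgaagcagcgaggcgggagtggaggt
JUND: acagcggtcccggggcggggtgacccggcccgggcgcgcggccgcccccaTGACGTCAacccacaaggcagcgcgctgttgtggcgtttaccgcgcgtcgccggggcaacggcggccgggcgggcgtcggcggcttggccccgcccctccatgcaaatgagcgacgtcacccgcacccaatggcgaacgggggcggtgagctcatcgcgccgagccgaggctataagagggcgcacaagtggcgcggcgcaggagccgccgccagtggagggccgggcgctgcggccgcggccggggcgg
EGR1: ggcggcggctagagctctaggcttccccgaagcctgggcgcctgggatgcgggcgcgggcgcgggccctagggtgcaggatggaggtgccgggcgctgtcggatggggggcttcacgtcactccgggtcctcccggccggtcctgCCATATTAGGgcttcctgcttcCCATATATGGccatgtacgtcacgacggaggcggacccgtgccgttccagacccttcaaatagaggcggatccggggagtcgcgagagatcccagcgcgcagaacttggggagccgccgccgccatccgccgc
SRF: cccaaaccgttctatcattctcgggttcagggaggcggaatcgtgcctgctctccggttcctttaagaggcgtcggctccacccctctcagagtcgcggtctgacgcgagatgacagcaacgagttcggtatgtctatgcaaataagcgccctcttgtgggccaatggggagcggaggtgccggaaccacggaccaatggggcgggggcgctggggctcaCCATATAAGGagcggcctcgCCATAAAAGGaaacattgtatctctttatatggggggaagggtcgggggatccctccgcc

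ATF3 and JUN shared the word TGACATCA, which began 123 bases before the start site in ATF3 and 67 bases before it in JUN. Of all 35116 RefSeq promoters, 2.61% held that word. FOSL2 had a TRE beginning at base 5 of the transcript (4.95% of all promoters had one), and JUND a CRE beginning 200 bases before its start (1.85%). EGR1 and SRF, both without a passing change (values below), each had 2 CArG boxes, at -105 and -83 in EGR1 and at -30 and -10 in SRF, against 1.29% of promoters with any. FOS, JUNB and IER2 had the CRE half-site alone, once each, at -64, -137 and -140, and 24.6% of all promoters had it. Neither the EGR site (0.795% of promoters) nor the ATF4-C/EBP element (0.991%) was in a member's window. The RefSeq start of JUN lies 280 bases, and the distal one of ATF3 43263 bases, from the start of the main transcript in GENCODE 29. The other ATF3 start lies 6348 bases from it, so the promoter of the main ATF3 transcript was not searched. The main JUN transcript starts at 58784327 on the minus strand, upstream of the whole JUN window, so its own promoter was not searched either. A match is a run of letters, not a measured site, and a word missing from these 300 bases may stand elsewhere.

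Of the 9 measured genes, 6 fell with siPCIF1, none rose and 3 did not pass, at an adjusted p under 0.05 by the authors' deposited table. The background is 17.7% of all 13885 genes lower and 16.3% higher, 34% in either direction. Among the 8798 genes with a mean of at least 100, as all 9 members have, 21.5% were lower and 18.8% higher. ATF3, FOSL2, JUN, JUND, FOS and JUNB were the genes that fell, which are all 6 measured AP-1 subunits counting ATF3, while IER2, EGR1 and SRF did not pass. Their median log2 fold change was -0.62, against 0.01 over all genes of the authors' deposited table. At an unadjusted p under 0.05, 7 of the 9 were lower and 0 higher in the authors' deposited table, IER2 being the seventh, against 3056 lower and 2942 higher of all 13885 genes. The direction, siPCIF1 over siScramble, was taken from the sign of PCIF1, because the header does not state it. The name of the table puts siScramble first, and read plainly that would turn every sign here, every rank, and every percentage of the siScramble level into its inverse.

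**Figure D1:**
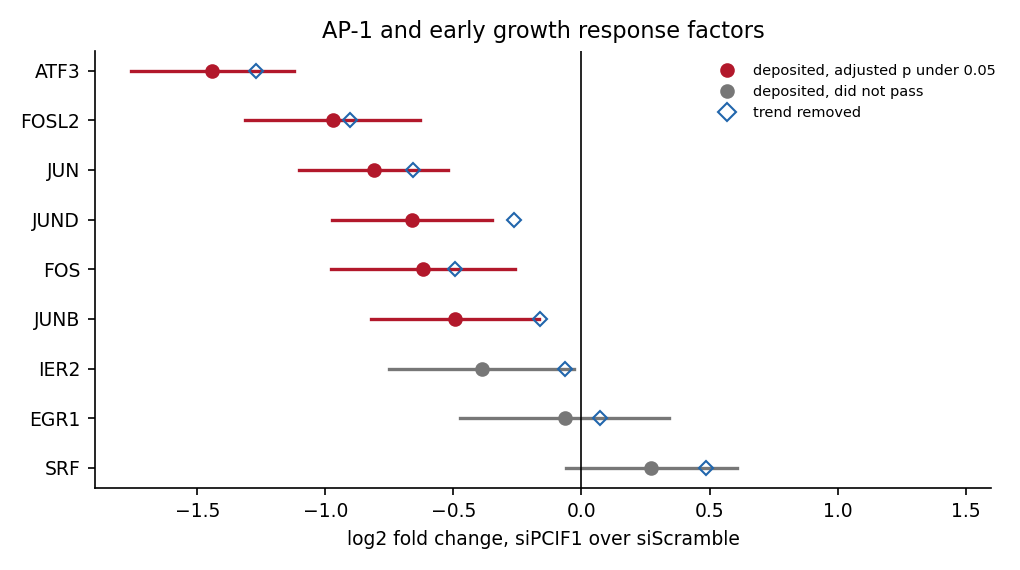
Log2 fold change, siPCIF1 over siScramble, of the 9 measured genes (x axis) with 95% intervals from the deposited SE (bars); red points passed an adjusted p of 0.05, grey points did not, and open diamonds are the values after a trend with GC content, lengths and expression was removed. ATF3 lies lowest at -1.44 and SRF highest at 0.27, and the diamonds of JUNB and JUND lie nearer 0 than their points.

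Values per library are not analysed here, so each gene is given by its mean over the 6 libraries, its fold change and the SE of that change. The labels do not say whether a group's 3 samples were separate cultures, so the p-values may reflect technical spread alone. Fewer cells expressing a gene and less RNA per cell cannot be told apart in bulk RNA.

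Both measured FOS proteins' genes were lower. FOS (ENSG00000170345.9; GRCh38 chromosome 14, 75278774 to 75282230, plus strand, 4 exons in its main transcript) encodes c-Fos, the classic immediate early factor. Its mean normalised count in the authors' deposited table was 161 and its log2 fold change -0.62 (SE 0.18; DESeq2 adjusted p = 0.00395). That change puts FOS at 65.2% of the siScramble level (95% interval from the SE 50.8 to 83.6%) by the authors' deposited table. FOSL2 (ENSG00000075426.11; chromosome 2, 28392448 to 28417312, plus strand, 4 exons) encodes Fra-2, a FOS protein that builds up later and lasts longer than c-Fos. In the authors' deposited table FOSL2 had a mean of 247 and a log2 fold change of -0.97 (SE 0.17; DESeq2 adjusted p = 5.02e-07). FOSL2 was thus at 51.0% of the siScramble level (95% interval 40.2 to 64.6%) from the authors' deposited table. The intervals of FOS and FOSL2 overlapped, so their order is not resolved.

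All 3 JUN genes fell, by amounts whose intervals overlapped. JUN (ENSG00000177606.6; chromosome 1, 58780788 to 58784327, minus strand) encodes c-Jun, the target of the JNK kinases and the strongest activator of the family. For JUN the authors' deposited table gave a mean of 487 and a log2 fold change of -0.81 (SE 0.15; DESeq2 adjusted p = 9.72e-07). The level of JUN was 57.0% of that with siScramble (46.6 to 69.7%) by the authors' deposited table. JUNB (ENSG00000171223.5; chromosome 19, 12791496 to 12793315, plus strand) encodes a weaker activator that can oppose c-Jun. The values of JUNB in the authors' deposited table were a mean of 768 and a log2 fold change of -0.49 (SE 0.17; DESeq2 adjusted p = 0.0133), or 71.0% of the siScramble level (56.5 to 89.2%). Exons of HOOK2 overlap JUNB on the opposite strand, and none of the sources used here gives the strand setting of the counting. JUND (ENSG00000130522.5; chromosome 19, 18279760 to 18281622, minus strand) encodes the JUN protein that most cells hold at rest. JUND stood in the authors' deposited table at a mean of 1609 and a log2 fold change of -0.66 (SE 0.16; DESeq2 adjusted p = 0.00029), or 63.2% of the siScramble level (50.9 to 78.5%). Each JUN gene is a single exon, which 8.29% of the genes with annotation are.

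ATF3 had the lowest fold change of the 9. The gene (ENSG00000162772.16; chromosome 1, 212565334 to 212620777, plus strand, 4 exons in its main transcript) encodes a stress-induced bZIP factor that often acts as a repressor. With a mean of 731, it had a log2 fold change of -1.44 by the authors' deposited table (SE 0.16; DESeq2 adjusted p = 6.61e-17). ATF3 RNA was at 36.8% of the siScramble level (29.6 to 45.9%) by the authors' deposited table, and its fold change ranked 136 from the lowest of 13885 in the direction taken here. Its interval lay apart from those of 7 of the other 8 members in the authors' deposited table, all but FOSL2. These intervals come from the same libraries, so the comparison of pairs is a description and no test.

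EGR1, IER2 and SRF gave no passing change. EGR1 (ENSG00000120738.7; chromosome 5, 138465490 to 138469315, plus strand, 2 exons) encodes the zinc finger factor of the early growth response. EGR1 had a mean of 284 and a log2 fold change of -0.07 (SE 0.21; DESeq2 adjusted p = 0.839) by the authors' deposited table. The 95% interval of EGR1 ran from 72.0 to 127% of the siScramble level in the authors' deposited table, so neither a modest decrease nor a modest increase is resolved. IER2 (ENSG00000160888.6; chromosome 19, 13150415 to 13154908, plus strand, 2 exons) encodes a small nuclear protein induced together with the other early genes. The fold change of IER2 in the authors' deposited table was -0.39 (SE 0.18; DESeq2 adjusted p = 0.0884) at a mean of 679, or 76.3% (59.4 to 98.1%). Exons of AC011446.2 overlap IER2 on the opposite strand. SRF (ENSG00000112658.7; chromosome 6, 43171299 to 43181507, plus strand, 7 exons) encodes serum response factor, which binds the CArG boxes of early genes. SRF had a mean of 212 and a log2 fold change of 0.27 (SE 0.17; DESeq2 adjusted p = 0.215) by the authors' deposited table, or 121% (95.8 to 152%). The interval of SRF lay above those of all 6 genes that fell, and that of EGR1 above those of ATF3, FOSL2 and JUN, by the authors' deposited table. Over all 36 pairs of members, the intervals lay apart in 14.

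**Figure D2:**
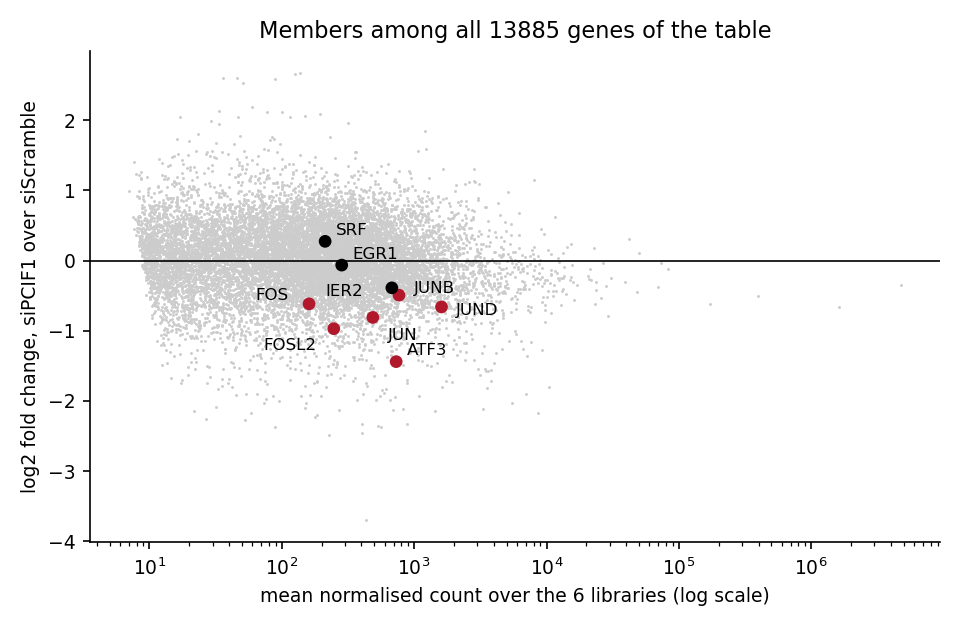
Log2 fold change, siPCIF1 over siScramble (y axis), against the mean normalised count over the 6 libraries (x axis, log scale) for all 13885 genes (grey); members that fell are red and members that did not pass are black. The members sit at means of 161 to 1609, with ATF3 lowest at -1.44 and SRF alone above 0.

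For their length, 7 of the 9 members were expressed above the median gene. Per kb of main transcript, JUND had a mean normalised count of 864 in the authors' deposited table, JUNB 422, ATF3 360, IER2 325, JUN 138, EGR1 90.4, FOS 74.5, SRF 50.6 and FOSL2 36.8. The median over all genes was 55.6 per kb, and SRF and FOSL2 were below it. By these levels from the authors' deposited table JUND was the most abundant of the 6 measured AP-1 subunits after the 4 days of ATRA, and FOS and FOSL2 were the least abundant. Spread over libraries cannot be given for these levels, so neighbours such as JUNB, ATF3 and IER2 cannot be ordered firmly. ATF3 and JUNB had like levels with log2 fold changes of -1.44 and -0.49 in the authors' deposited table. A relation between level and change over the 9 members was not tested.

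**Figure D3:**
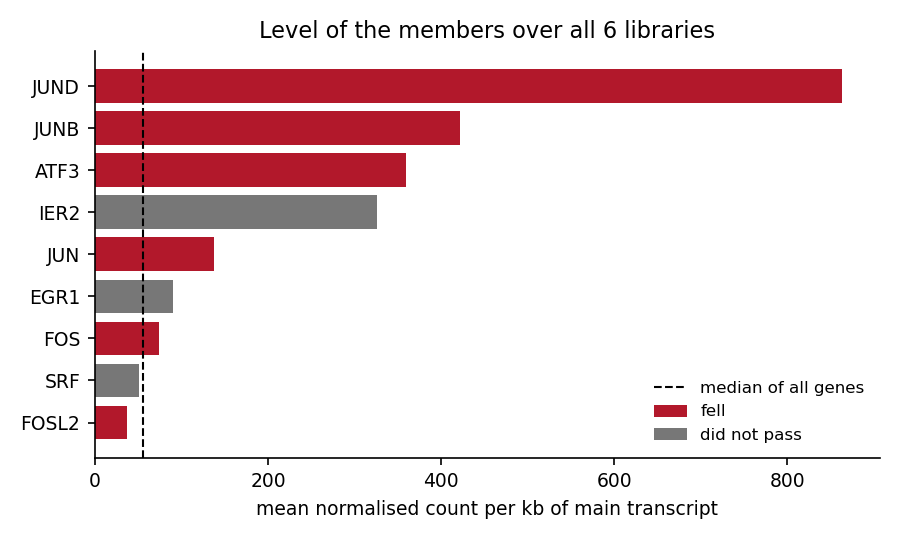
Mean normalised count per kb of main transcript over all 6 libraries (x axis, linear from 0) for the 9 measured genes; red bars fell, grey bars did not pass, and the dashed line is the median of all genes, 55.6. JUND stands highest at 864, and SRF and FOSL2 lie under the line.

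Most of these genes are short and rich in G and C, and short, GC-rich genes were more often lower than others. The median gene length of the members was 3826 bases against 28973 over all 13877 annotated genes, with 2 exons against 8 and a GC content of the main transcript of 56.7% against 48.8%. JUN, JUNB, JUND, EGR1 and IER2 are both shorter than 5000 bases and at least 55% GC, which 6.44% of all genes are. Of those 893 short, GC-rich genes 30.8% were lower and 4.14% higher in the authors' deposited table. A smooth fit of the fold changes on GC content, transcript length, gene length and mean expression took up 18.8% of their variance over all genes. With that trend removed, 12.5% of 13877 genes were lower and 11.9% higher, and 4 members were lower and 1 higher. The part of the trend in the members' changes beyond this fit was not tested.

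With the trend removed, ATF3 went to -1.27 (adjusted p = 4.43e-13 from the DESeq2 values) and FOSL2 to -0.90 (4.91e-06) in the authors' deposited table, both still passing. JUN went to -0.66 (adjusted p = 0.000137 from the DESeq2 values) and FOS to -0.49 (0.0325), which also passed. JUND went to -0.26 (adjusted p = 0.234 from the DESeq2 values) and JUNB to -0.16 (0.538), so neither call held. IER2 went to -0.06 and EGR1 to 0.07, with adjusted p-values from the DESeq2 values of 0.849 each. SRF, which is 60.9% GC, went to 0.49 and passed as higher (adjusted p = 0.0233 from the DESeq2 values). The calls of ATF3, FOSL2, JUN and FOS therefore held with and without the trend, and those of JUND, JUNB and SRF did not.

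**Figure D4:**
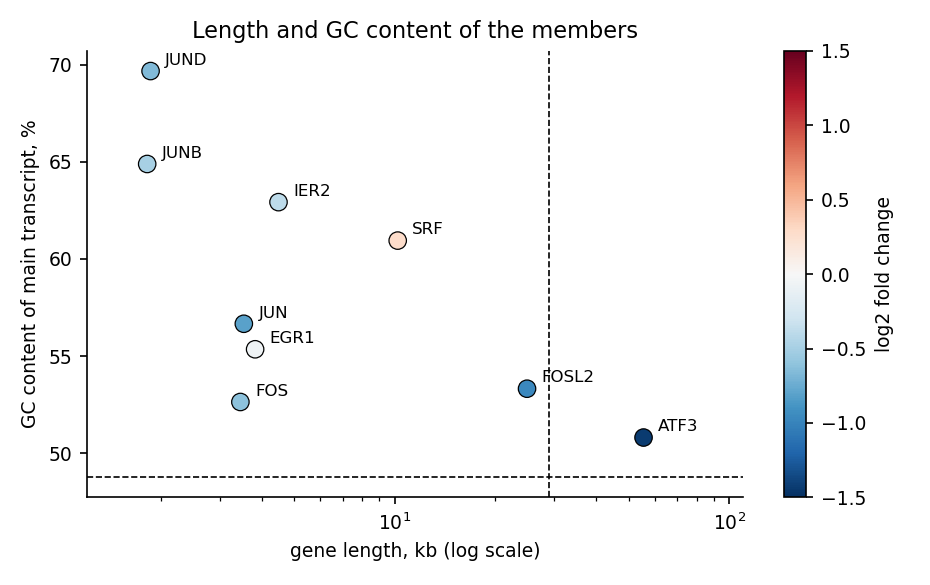
Gene length in kb (x axis, log scale) against the GC content of the main transcript in percent (y axis) for the 9 measured genes, coloured by log2 fold change; dashed lines are the medians of all genes. JUND and JUNB lie highest in GC content at under 2 kb, and ATF3 and FOSL2, the genes with the lowest fold changes, are the longest.

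Among other features, 3 of the 9 members start with A in the annotated main transcript, the base that PCIF1 acts on. These were FOS, JUND and ATF3, and all 3 fell, beside JUN, which starts with C, and FOSL2 and JUNB, which start with G. Over all genes 29.9% start with A, and 16.3% of those were lower in the authors' deposited table, against 18.2% of the others. The annotated start is not measured here, and ATF3 has several start sites. AU-rich words were common: FOSL2 held 9 copies of ATTTA in its 3′ UTR, FOS 5, and JUN, ATF3 and SRF 3 each. At least 3 copies stood in 5 of 9 members and in 42.6% of the 11642 genes with an annotated 3′ UTR. Of the 4964 such genes 11.8% were lower and 27.5% higher in the authors' deposited table, while FOS, FOSL2, JUN and ATF3 fell and SRF did not pass.

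Of 19 other bZIP genes listed beside the AP-1 subunits, 16 were measured, and 7 of these fell and 1 rose. The median log2 fold change of the 16 was -0.30 in the authors' deposited table. Each list count here and below stands beside 17.7% of all genes lower and 16.3% higher. JDP2, a repressor that pairs with JUN proteins, was at -1.29 (SE 0.19; DESeq2 adjusted p = 2.86e-10) by the authors' deposited table. NFE2L1, a bZIP factor of the proteasome response, was at -0.71 (SE 0.16; DESeq2 adjusted p = 0.000119) by the authors' deposited table. The small MAF gene MAFG, whose product pairs with NFE2 factors, was at -0.47 in the authors' deposited table (SE 0.14; DESeq2 adjusted p = 0.00323). CREB1, the cyclic AMP factor, rose by 0.43 in the authors' deposited table (DESeq2 adjusted p = 0.0267), and was at 0.03 with the trend removed. MAFG then went to -0.28 (adjusted p = 0.121 from the DESeq2 values), and MAFF and BATF3 lost their calls too, while CREM, ATF2 and CREB5 were called lower and BATF2 higher. The trend-removed counts were thus again 7 lower and 1 higher. FOSL1, BATF and MAF were not matched.

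Of the other immediate early genes 35 of 45 were measured, and 16 fell while 3 rose, with a median of -0.30 from the authors' deposited table. MYC, a growth factor-induced bHLH factor, had a log2 fold change of -2.22 in the authors' deposited table (SE 0.19; DESeq2 adjusted p = 2.49e-29). PPP1R15A, the stress-induced subunit that directs dephosphorylation of eIF2alpha, was at -1.72 in the authors' deposited table (SE 0.16; DESeq2 adjusted p = 1.82e-23). GADD45A, a growth arrest gene, was at -1.14 in the authors' deposited table (SE 0.20; DESeq2 adjusted p = 1.43e-07). The 3 that rose in the authors' deposited table were BTG2 by 1.13, PLK2 by 0.54 and SGK1 by 0.42 (DESeq2 adjusted p = 5.73e-09, 0.000482 and 0.0112). Early genes did not all move one way, then, and with the trend removed 9 were lower and 3 higher.

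The genes around SRF were mixed. Of 5 measured cofactors, ELK1 fell by 0.51 and ELK4 rose by 0.56 in the authors' deposited table (DESeq2 adjusted p = 0.00809 and 0.00857), and neither passed with the trend removed. MRTFA, the actin-sensing coactivator, was at 0.10, MRTFB at 0.09 and ELK3 at -0.09 in the authors' deposited table, without passing. Of 24 measured actin cytoskeleton targets of SRF 8 fell and 2 rose, with a median of -0.28 from the authors' deposited table, and 4 were lower and 3 higher with the trend removed. FHL1 was at -1.03 and the actin crosslinker FLNA at -1.01 in the authors' deposited table (DESeq2 adjusted p = 1.82e-11 and 3.53e-09). The focal adhesion gene VCL rose by 0.63 and CNN3 by 0.50 in the authors' deposited table (DESeq2 adjusted p = 0.000476 and 0.000996).

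Known AP-1 target genes had a median log2 fold change of -0.64 in the authors' deposited table, with 9 of 16 measured genes lower and 1 higher, and 8 and 2 with the trend removed. HMOX1, the inducible heme oxygenase, was at -3.70, VIM, the intermediate filament vimentin, at -1.54, and LMNA, the A-type lamin, at -1.19 in the authors' deposited table (DESeq2 adjusted p = 8.49e-78, 9.86e-26 and 6.78e-15). S100A11, a calcium-binding protein gene, was at -1.13 in the authors' deposited table (SE 0.13; DESeq2 adjusted p = 2.6e-15). CCND1, the G1 cyclin D1, was the one that rose, by 1.14 in the authors' deposited table (SE 0.14; DESeq2 adjusted p = 7.42e-15). Several of these genes answer to other factors too, HMOX1 to NRF2 among them. Of 12 measured EGR corepressors and targets 3 fell (25%) and 2 rose (16.7%), against 17.7% and 16.3% of all genes. The list's median was -0.03 from the authors' deposited table. The death receptor gene TNFRSF10B was at -2.13, TGFB1 at -0.76 and the synaptic gene ARC at -0.61 in the authors' deposited table (DESeq2 adjusted p = 2.48e-36, 0.000498 and 0.00144). NAB1, a corepressor of EGR proteins, rose by 0.58 and SYN2, a synapsin gene, by 0.51 in the authors' deposited table (DESeq2 adjusted p = 0.00187 and 0.026), while NAB2 was at -0.07. With the trend removed 2 of the 12 were lower and 1 higher, and ARC and NAB1 did not pass (adjusted p = 0.118 and 0.11 from the DESeq2 values).

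**Figure D5:**
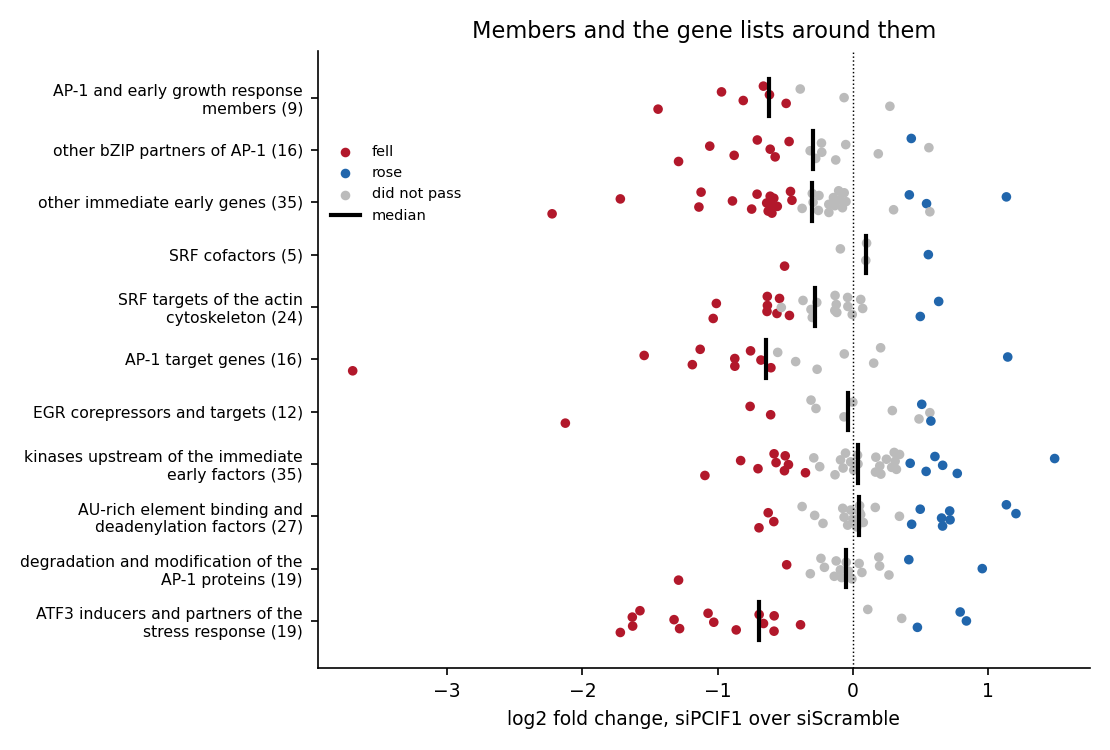
Log2 fold change, siPCIF1 over siScramble (x axis), of each measured gene of the members and of 10 lists around them (rows, number measured in brackets); red fell, blue rose, grey did not pass, and the black bar is the list's median. The members (-0.62), AP-1 targets (-0.64) and ATF3 inducers (-0.69) have the lowest medians, and kinases (0.03) and AU-rich element factors (0.05) lie near 0.

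The stress genes that induce or accompany ATF3 had the lowest median of the 10 lists. All 19 were measured, 14 fell and 3 rose, and the median was -0.69 in the authors' deposited table. The counts were again 14 and 3 with the trend removed. DDIT3, the stress factor CHOP, was at -1.63, ATF4, which binds the ATF4-C/EBP element, at -1.28, and CEBPB, a bZIP partner of both, at -1.63 in the authors' deposited table (DESeq2 adjusted p = 3.53e-17, 1.07e-16 and 3.23e-16). The 3 that rose in the authors' deposited table were EIF2S1, the alpha subunit of eIF2, by 0.79 and the eIF2alpha kinase genes EIF2AK2 by 0.84 and EIF2AK4 by 0.48 (DESeq2 adjusted p = 3.08e-06, 9.34e-06 and 0.00842). No member's promoter window held the ATF4-C/EBP element, as given above, and distal sites were not searched. The ATF3 windows stand at RefSeq starts 43263 and 6348 bases from the start of its main transcript, whose own promoter was therefore not searched.

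The kinases that carry signals to these factors had no common direction. Of 35 measured kinase and GTPase genes 9 fell (25.7%) and 6 rose (17.1%), against 17.7% and 16.3% of all genes. The list's median was 0.03 from the authors' deposited table, and with the trend removed 3 were lower and 5 higher. RPS6KA2, an ERK-driven kinase, was at -1.09 and MAPKAPK2, the kinase below p38, at -0.83 in the authors' deposited table (DESeq2 adjusted p = 1.32e-12 and 8.09e-08). MAP2K6, which activates p38, rose by 1.49 and MAPK10, the neuronal JNK, by 0.77 in the authors' deposited table (DESeq2 adjusted p = 9.79e-09 and 2.67e-05). Phosphorylation is not measured by RNA-seq.

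Among factors that act on AU-rich RNAs and on the poly(A) tail more genes rose than fell, with 3 of 27 measured genes lower, 8 higher and a median of 0.05 from the authors' deposited table. ELAVL2, a neuronal protein that stabilises AU-rich RNAs, rose by 1.21 in the authors' deposited table (SE 0.20; DESeq2 adjusted p = 5.46e-08). The deadenylase gene CNOT6 rose by 0.66 and TIA1, which binds U-rich and AU-rich RNAs, by 0.66 in the authors' deposited table (DESeq2 adjusted p = 0.000187 and 0.000597). The 3 that fell in the authors' deposited table were BTG1 (-0.63), CNOT3 (-0.69) and ZFP36 (-0.59), the last of which encodes tristetraprolin, a decay factor of AU-rich RNAs (DESeq2 adjusted p = 0.00102, 0.00334 and 0.0394). With the trend removed 2 of the 27 were lower and 4 higher. CNOT6, TIA1 and ZFP36 then did not pass (adjusted p = 0.124, 0.106 and 0.162 from the DESeq2 values). Of 19 genes for degradation or modification of the AP-1 proteins 2 fell and 2 rose (10.5% each), against 17.7% and 16.3% of all genes. The list's median was -0.05 from the authors' deposited table. JDP2 (above) was among those that fell, and the ubiquitin ligase gene UBR1 rose by 0.96 and the corepressor gene NCOR1 by 0.41 in the authors' deposited table (DESeq2 adjusted p = 1.34e-08 and 0.0321). With the trend removed 1 was lower and 1 higher, and NCOR1 did not pass. FBXW7, a ligase subunit that marks c-Jun for degradation, was at -0.01 in the authors' deposited table (DESeq2 adjusted p = 0.976).

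The lists share genes, since JDP2, PPP1R15A, ARC, EGR3, BTG1, BTG2, ZFP36 and ZFP36L2 each stand in more than 1, and exons of many named genes overlap a gene on the opposite strand, as 30.8% of all annotated genes do. Over the 200 genes of the 10 lists together, each counted once, 33.5% were lower and 14% higher in the authors' deposited table. Over all 13885 genes the shares were 17.7% and 16.3%.

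Over the whole table, means ran from 7.01 to 4.78e+06 with a median of 175 from the authors' deposited table, and the depth of single libraries is unknown. PCIF1, whose sign set the direction, was at -0.82 (SE 0.19; DESeq2 adjusted p = 0.000167) by the authors' deposited table, and its sign is then no evidence that the siRNA worked. PCF11, the termination factor of the series title, was at 0.35 in the authors' deposited table (DESeq2 adjusted p = 0.0667). Adrenergic neuroblastoma markers were measured for 14 of 15 genes, of which 2 fell and 5 rose, MYCN and CHGB among them, in the authors' deposited table. Of the 12 fibroblast markers 9 were measured, at means up to 1935 in the authors' deposited table, and COL6A2 and PDGFRB fell. Of 8 Schwann and glial markers 3 were measured, with S100B higher in the authors' deposited table. Of 12 immune, endothelial and epithelial markers 3 (KRT8, KRT18 and EPCAM) were measured, at means of 12.2 to 40.7 in the authors' deposited table, and none passed. The part of these markers in the members' changes was not tested.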

How the data were processed

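RNA was measured in 6 samples, 3 with siScram and 3 with siPcif1, all with ATRA. Per the submitters' processing notes, STAR 2.7.10a, HTSeq, DESeq2, cutadapt 3.7, bcl2fastq 2.20 and deepTools were used with hg38, no role or setting being named. The sources used here give neither the gene annotation nor the strand setting. The only table analysed is the authors' deposited DESeq2 comparison. Its mean normalised count over all samples is a signal computed by the authors, and the authors deposited its fold change and SE as log2 values. The Wald statistic is a score deposited by the authors, and the p-value and adjusted p-value are also as the authors deposited them. The adjusted values equal a Benjamini-Hochberg adjustment over the 13885 listed genes. The depth of single libraries is unknown, so the SE stands for precision (0.119 to 0.295, median 0.181).

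For 1311 genes (9.44%) the SE is below the counting error that 3 against 3 libraries would have at their mean. Fold changes and SEs therefore look shrunken towards 0, which the header does not state, and printed changes may be too small. Upper bounds on the size of the unshrunken changes took the largest SE as the smallest possible prior SD. Intervals are 95% normal intervals from the deposited SE.

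Identifiers were matched to GENCODE 29 without their version (13877 of 13885), which gave symbols, coordinates, lengths, GC content and 3′ UTRs. The trend was fitted over these genes with cubic splines of 5 knots. Promoters came from RefSeq (GRCh38.p14). All measured members were named; from each list, up to 4 genes with the smallest adjusted p were named, plus those needed for counts of 3 or fewer, and FBXW7, NAB2, EGR3, NR4A1, DUSP1, MAFF, BATF3, CREM, ATF2, CREB5 and BATF2 after their values were seen. Values of some genes this rule takes are not reported here. The members and lists were chosen with earlier results of these data known. The trend removal and the adjusted calls after it were tested on simulated data, and the other steps were not. Python 3.11.15, numpy 2.4.6, scipy 1.17.1, pandas 2.3.3, scikit-learn 1.9.0 and matplotlib 3.10.9 were used. Alternatives were other thresholds, a minimum change, a test against a change of 0.3, a minimum mean of 100, centring, the trend, the robust SD of the Wald statistic and Holm's adjustment.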

Additional observations from a re-analysis of the deposited data

How the results depend on the processing

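The 6 decreases among the members came down to 3 (ATF3, FOSL2 and JUN) in a test against an absolute log2 change of 0.3 and also to 3, the same genes, with Holm's adjustment. With Wald statistics scaled to their robust SD of 2.44, 1 member was called, ATF3, at an adjusted p of 0.0347 from the DESeq2 values. With the trend removed, 4 members were lower and 1, SRF, higher, JUNB and JUND were lost, and EGR1 turned to 0.073 from -0.065. An adjusted p under 0.01, a change of at least 0.5 and centring on the median gave 5, 5 and 6 decreases among the members. Over all genes these settings gave 1685, 1855 and 2490. Adjusting only within the 8798 genes with a mean of at least 100 gave 1956 decreases over those genes and 6 among the members. A threshold of 0.1 gave 7, adding IER2, and 2933 over all genes. Over all genes, 4716 calls became 1260 (723 lower, 537 higher) against a change of 0.3, 1197 with Holm's adjustment and 135 (114 lower, 21 higher) with the robust SD. Without shrinkage the changes could reach at most -2.06 for ATF3, -1.49 for FOSL2, -1.09 for JUN, -0.94 for JUND and -0.73 for JUNB, with FOS between JUND and JUN; this bound stands in for the planned estimate, which the deposited values do not allow. Of the 95 list genes called, 69 were called with the trend removed and 77 at 0.01. No paired analysis was possible because the table has no values per library and its columns carry no replicate numbers; leaving out a replicate was not run for that reason. Where calls changed, the cause was not tested. The SE of IER2, 0.18, leaves a change of the size seen in JUNB undecided.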

Other observations

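Across the 10310 genes of the table with a RefSeq promoter, 18.3% were lower and 16.7% higher in the authors' deposited table. Genes with a CArG box in that window were lower in 25.9% and higher in 12.0% of 166 cases. SRF and EGR1, the members with CArG boxes there, did not pass. Genes with a TRE (476) were lower in 19.7% and higher in 15.5%, and those with the JUN-type word (223) in 19.3% and 18.4%. A CRE (424 genes) went with 16.7% lower and 17.0% higher, and the EGR site (171) with 14.6% each. For the ATF4-C/EBP element (81 genes) the shares were 24.7% and 29.6%. These are counts over genes that differ in length and GC content, with no test.

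The word TCAAGT stood in the 3′ UTR of FOS, FOSL2, JUN and IER2, 4 of 9 members, and in 31.2% of the 11642 genes with a 3′ UTR. FOSL2 had it 2 times. Of the 4 members with the word 3 fell, and of the 5 without it also 3. Over all genes in the authors' deposited table the median fold change was 0.10 with the word (3632 genes) and -0.05 without. With length, GC content and expression as covariates, the coefficient was -0.07 on the log2 scale (SE 0.011). The raw medians and the coefficient thus differ in sign.

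Among early genes named after their values were seen, EGR3 was at 0.57 by the authors' deposited table without passing (DESeq2 adjusted p = 0.124). NR4A1, an orphan nuclear receptor induced with FOS, was at -0.25 and DUSP1, a phosphatase of MAP kinases, at -0.18 in the authors' deposited table, neither passing.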
